A study of Bos taurus with 9 samples.

Results

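Osteopontin, the product of SPP1, is a secreted acidic phosphoprotein that cells hold through its integrin-binding RGD motif and through the hyaluronan receptor CD44. The genes described here are SPP1, CD44, the integrin alpha subunit ITGAV and the beta subunits ITGB3, ITGB5, ITGB6 and ITGB8, each of which joins the alpha-V protein to form a receptor. They were chosen by symbol and make up 7 of the 20679 genes in the deposited tables. SPP1, CD44, ITGAV and ITGB6 were also named in the study of these same samples as genes that differed with EGF, so their direction here is not independent evidence.

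RNA-seq was done on 9 libraries of bovine (Bos taurus) uterine gland fragments after 5 days in 3D culture, with 3 libraries per group. Fragments kept in Matrigel without EGF gave cysts (CYST), fragments kept in Matrigel with EGF, the epidermal growth factor, gave tubular uterine gland-like structures (MAT), and fragments kept with EGF in Matrigel to which type I collagen was added made up the last group (MAT + COL). All 3 groups shared the medium, DMEM/F12 with bovine serum albumin, ascorbic acid, transferrin, sodium selenite and insulin. The fragments came from endometrium of abattoir uteri digested with enzymes, so that a library holds many fragments and whatever other cells came with them, and the labels do not say which animal gave which library.

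Osteopontin belongs to the SIBLING family of phosphoproteins and is known in the uterus as a secretion of the glandular epithelium that bridges integrins of the conceptus and the endometrium. Alpha-V integrins read the RGD motif in osteopontin, fibronectin, vitronectin and the latency peptide of TGF-beta, and the beta subunit sets which of these is bound best. ITGB6 is largely restricted to epithelia, and receptors with ITGB6 or ITGB8 are known for the activation of latent TGF-beta.

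Libraries held 6568968 to 17948600 counts on genes. The 7 genes had 68 to 14473 counts per library, the lowest being SPP1 in CYST replicate 3 at 6.83 CPM, the count scaled to the library total (95% exact interval 5.30 to 8.66, covering counting error only). The labels give the cell type as epithelial. All 6 epithelial markers had a mean of at least 1 TPM, the read count scaled by gene length and library. Their sums were 16649 to 18423 TPM in CYST, 27613 to 43306 in MAT and 28181 to 38520 in MAT + COL. Of 8 stromal markers, 7 also reached a mean of 1 TPM, with sums of 2225 to 4798 TPM in CYST, 1191 to 3742 in MAT and 2197 to 4249 in MAT + COL. Among 8 macrophage and leukocyte markers only CD14 and CD68 reached that mean, and their sums were 25.4 to 36.9, 21.1 to 48.3 and 28.6 to 35.2 TPM in the same order of groups. Of 5 endothelial markers 4 reached it, with sums of 12.8 to 18.4, 8.60 to 26.3 and 14.4 to 27.5 TPM.

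The question put to the first comparison was which of these genes differed between UG-LIKE structures and cysts. With EGF, the mRNAs of the ligand, of CD44, of ITGAV and of ITGB6 were higher in all 3 MAT libraries than in any CYST library, whereas ITGB3, ITGB5 and ITGB8 were not. Groups that did not overlap with MAT higher were found for 4 of the 7 genes and for 11.9% of the 12074 genes tested. CD44 alone passed the criteria of a DEG, which were an adjusted p under 0.05, a Log2FC (log2 of the fold change) above 1 or below -1 and a TPM above 1 in each library, as did 0.721% of all genes in that direction. When the replicate number was included as a block, CD44, ITGAV and ITGB6 passed them, against 2.93% of all genes. The median Log2FC of the 7 genes was 1.12 without the block and 0.012 over all genes tested. As 4 of the 7 had already been named as differing with EGF in these samples, such counts and the median follow partly from that choice. Here and below they describe the 7 genes and are not evidence that the group stands apart from other genes.

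**Figure D1:**
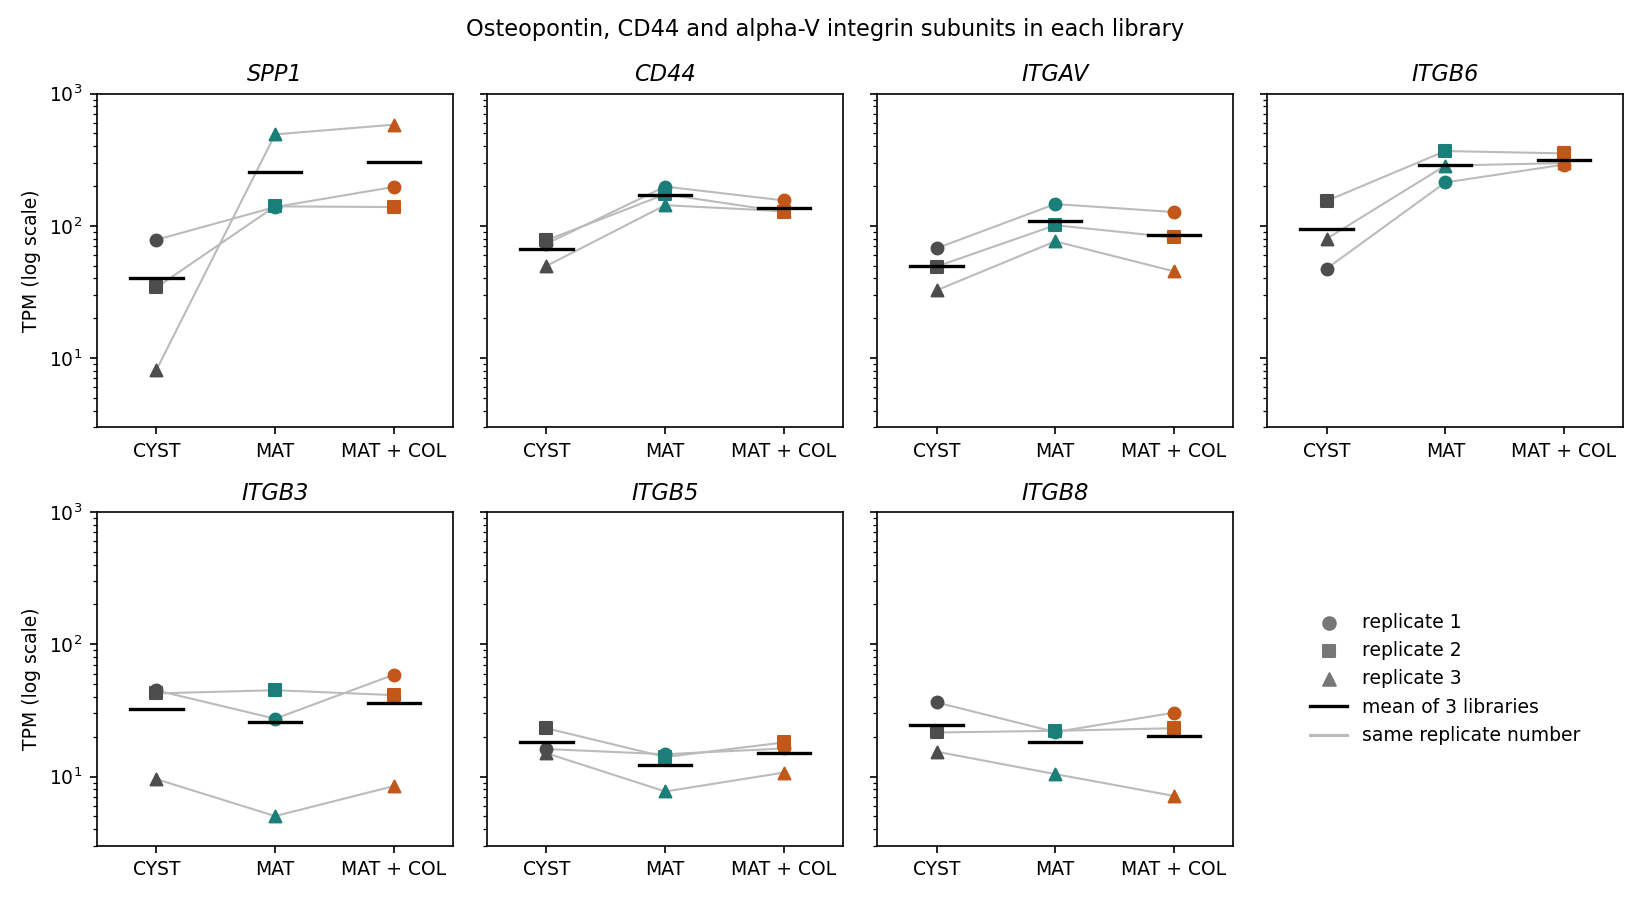
TPM (log axis) of the 7 genes in each of the 9 libraries, 1 panel per gene, with a point per library joined by replicate number and a bar at the group mean. SPP1, CD44, ITGAV and ITGB6 stood higher in every MAT library than in every CYST library, while the points of ITGB3 followed the replicate number, with replicate 3 lowest in each group.

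The ligand SPP1 (ENSBTAG00000005260, minus strand of chromosome 6, 36693206 to 36700390 on ARS-UCD2.0) had 78.3, 34.1 and 8.11 TPM in CYST replicates 1 to 3. With EGF its level was 138.5, 140.2 and 490.7 TPM in MAT and 196.6, 138.5 and 581.2 TPM in MAT + COL. The libraries with EGF were all above those without, and replicate 3 was the lowest of its group without EGF and the highest of its group with EGF. Same-numbered libraries therefore gave very unequal folds of the TPM, 1.77, 4.11 and 60.5 for MAT over CYST, and SPP1 had the widest range of the 7 genes, with a highest level 71.6 times the lowest.

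Group means of SPP1 were 40.2 ± 35.5 TPM in CYST (SD, n = 3), 256.5 ± 202.8 in MAT and 305.4 ± 240.6 in MAT + COL. The Log2FC of SPP1 was 2.76 (SE 0.79) in MAT versus CYST, and only 0.613% of all genes tested had a higher Log2FC. The difference did not pass edgeR's quasi-likelihood test with Benjamini-Hochberg adjustment (adjusted p = 0.106, or 0.0797 with the replicate block) and the SD was close to the mean in each group. DESeq2 placed it just under the threshold (adjusted p = 0.0468). With replicate 3 left out of both groups, the Log2FC of SPP1 under the block was 1.51 with an adjusted p of 0.0124 (edgeR). Under the block SPP1 did not pass without replicate 1 or replicate 2 (edgeR adjusted p up to 0.134). With 1 MAT or CYST library left out and no block, its Log2FC lay between 1.83, without MAT replicate 3, and 3.71, without CYST replicate 1. None of these fits passed (edgeR adjusted p 0.129 to 0.271). Fewer cells of a type and less RNA per cell cannot be told apart in such bulk libraries, for this gene or the others.

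CD44, the hyaluronan receptor, to which osteopontin also binds (ENSBTAG00000011578, plus strand of chromosome 15, 65648898 to 65737462), had a level of 73.1, 77.7 and 49.7 TPM in CYST, 197.8, 173.0 and 143.1 TPM in MAT and 155.4, 127.3 and 128.9 TPM in MAT + COL. No library with EGF overlapped with CYST. Means were 66.8 ± 15.0, 171.3 ± 27.4 and 137.2 ± 15.8 TPM (SD, n = 3 each), and the same-numbered folds of MAT over CYST were 2.71, 2.23 and 2.88. CD44 was upregulated in MAT, with a Log2FC of 1.36 (SE 0.19, adjusted p = 0.0256 by edgeR), which places it 39th of the genes tested when ordered by p. The call was lost without any one of MAT replicate 1, MAT replicate 2, CYST replicate 1 or CYST replicate 2 (adjusted p 0.0617 to 0.103), while the Log2FC remained between 1.27 and 1.46.

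The alpha subunit ITGAV, shared by all the receptors considered here (ENSBTAG00000019929, minus strand of chromosome 2, 9640830 to 9749434), had 67.5, 49.2 and 32.5 TPM in CYST, 145.9, 100.9 and 76.3 TPM in MAT and 127.0, 81.6 and 45.2 TPM in MAT + COL. Replicate 1 was highest and replicate 3 lowest in each group. The MAT libraries were all above the CYST libraries, while MAT + COL replicate 3 fell within the range of CYST. Means of ITGAV were 49.7 ± 17.5, 107.7 ± 35.3 and 84.6 ± 40.9 TPM (SD, n = 3 each), but the same-numbered folds of MAT over CYST were close to each other at 2.16, 2.05 and 2.35. The Log2FC in MAT versus CYST was 1.12 (SE 0.29) without the replicate block, where edgeR's adjusted p was 0.0805, and 1.11 (SE 0.16) with the block, where it was 0.0096 and ITGAV passed as a DEG. Without replicate 1, or without any single MAT or CYST library and no block, it did not pass (edgeR, adjusted p 0.0897 to 0.212).

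ITGB6, the epithelial beta subunit (ENSBTAG00000009080, plus strand of chromosome 2, 36097355 to 36248565), had 47.4, 154.1 and 79.6 TPM in CYST, 212.5, 367.2 and 284.8 TPM in MAT and 290.2, 352.5 and 297.9 TPM in MAT + COL. Both groups with EGF were above CYST without overlap. Means of ITGB6 were 93.7 ± 54.7, 288.2 ± 77.4 and 313.5 ± 34.0 TPM (SD, n = 3 each), and the folds of MAT over CYST by replicate number were 4.48, 2.38 and 3.58. Its Log2FC in MAT versus CYST was 1.63 (SE 0.41, edgeR adjusted p = 0.0766) without the block and 1.74 (SE 0.20, adjusted p = 0.0053) with it, so that ITGB6 also passed as a DEG under the block alone. That call was lost without replicate 1 (adjusted p = 0.0840 by edgeR).

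The other beta partners of alpha-V had lower levels and no call in MAT versus CYST. ITGB3, which completes the vitronectin receptor (ENSBTAG00000009987, plus strand of chromosome 19, 46322640 to 46394038), had 44.8, 42.5 and 9.56 TPM in CYST, 27.4, 44.9 and 5.02 TPM in MAT and 58.8, 41.2 and 8.47 TPM in MAT + COL. It differed by replicate rather than by group, as replicate 3 was lowest in each of the 3 groups. Its Log2FC in MAT versus CYST was -0.29 (SE 0.72, adjusted p = 0.864 by edgeR), or -0.52 (SE 0.25, adjusted p = 0.228) with the block. ITGB5, another vitronectin-binding subunit (ENSBTAG00000013755, minus strand of chromosome 1, 69196897 to 69312127), had 16.1, 23.2 and 15.0 TPM in CYST, 14.7, 14.1 and 7.71 TPM in MAT and 16.3, 18.1 and 10.7 TPM in MAT + COL. ITGB5 was the only one of the 7 genes with all MAT libraries below all CYST libraries, which held for 11.8% of all genes, and its Log2FC of -0.58 (SE 0.29) did not pass the test (adjusted p = 0.296, edgeR). ITGB8, the subunit known for presenting latent TGF-beta to neighbouring cells (ENSBTAG00000003709, plus strand of chromosome 4, 29023821 to 29120841), had 36.3, 21.5 and 15.4 TPM in CYST, 21.7, 22.2 and 10.4 TPM in MAT and 30.4, 23.2 and 7.13 TPM in MAT + COL. The groups overlapped, and its Log2FC in MAT versus CYST was -0.43 (SE 0.35, adjusted p = 0.531 by edgeR). No gene of the 7 was lower at an adjusted p under 0.05 in this comparison, where 0.944% of all genes were, and 1 was higher, against 0.845% of all genes (with the block, 0 against 5.67% and 3 against 4.90%).

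**Figure D2:**
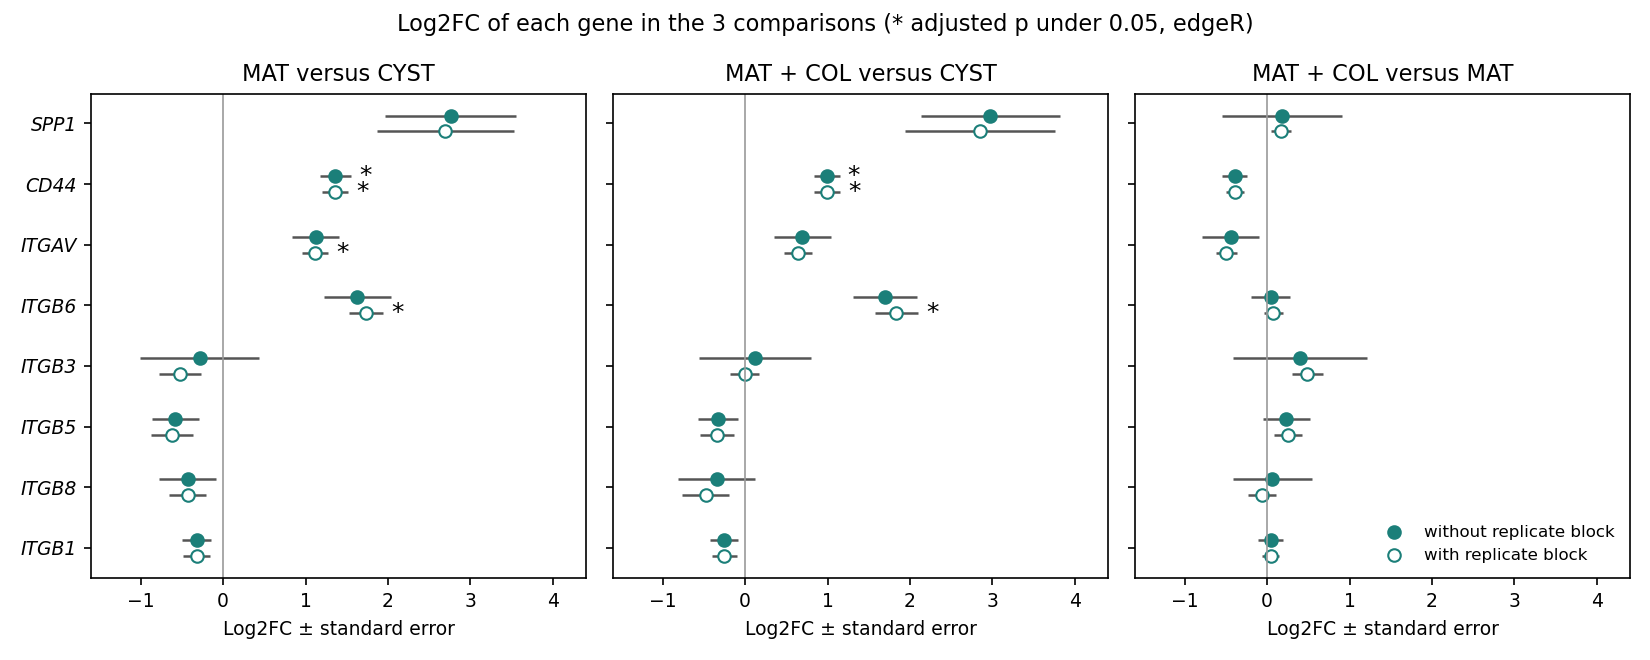
Log2FC of the 7 genes and ITGB1 in the 3 comparisons from edgeR, with bars of 1 SE, without (filled) and with (open) the replicate block; an asterisk marks an adjusted p under 0.05. The block left the Log2FC of CD44, ITGAV and ITGB6 in MAT versus CYST nearly in place (1.36, 1.11 and 1.74) and shortened the bars of ITGAV, ITGB3 and ITGB6, whereas that of SPP1 stayed wide.

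The libraries with collagen I gave another comparison of cultures with EGF against the same CYST libraries. They differ from CYST by collagen I as well as EGF. They also deviated together with the same-numbered MAT libraries (correlations of 0.473 to 0.690), so this comparison is not independent of the first. In MAT + COL versus CYST, SPP1, CD44 and ITGB6 were again higher without overlap, as were 14.3% of the 12509 genes tested, and none of the 7 was lower without overlap, as were 10.3%. Of the 7 genes, 0 passed all criteria of a DEG (0.512% of all genes did, with higher expression), and with the block 1 did, ITGB6, against 1.84%. CD44 was higher at an adjusted p under 0.05, as were 0.672% of all genes (2.68% with the block, where ITGB6 was also higher), and none was lower, against 0.815% (2.58% with the block).

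CD44 had a Log2FC of 0.99 (SE 0.16, adjusted p = 0.0383 by edgeR) in MAT + COL versus CYST, just short of the fold required of a DEG. The adjusted p of CD44 was above the threshold when any 1 of the 6 libraries was left out (0.0527 to 0.160) and when libraries were scaled by their totals (0.0618). The Log2FC of ITGB6 was 1.70 (SE 0.39, edgeR adjusted p = 0.0685), or 1.83 (SE 0.26, adjusted p = 0.0251) with the block, and its folds by replicate number were 6.12, 2.29 and 3.74. The call of ITGB6 with the block was lost without replicate 1 (edgeR adjusted p = 0.0510). Without the block it did not pass with any single library left out (0.0923 to 0.212). SPP1 had a Log2FC of 2.98 (SE 0.84, edgeR adjusted p = 0.102, or 0.115 with the block), with folds by replicate number of 2.51, 4.06 and 71.6. DESeq2 gave SPP1 an adjusted p of 0.0314, and without replicate 3 in both groups its Log2FC under the block was 1.66 (edgeR adjusted p = 0.0042). Under the block SPP1 did not pass without replicate 1 or replicate 2 (edgeR adjusted p up to 0.196). Nor did it pass without any single library and no block (0.134 to 0.245). ITGAV had a Log2FC of 0.70 (SE 0.34, edgeR adjusted p = 0.288), or 0.64 (SE 0.17, adjusted p = 0.0790) with the block. All 3 same-numbered folds of ITGAV were above 1 (1.88, 1.66 and 1.39), yet it did not pass.

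The remaining beta subunits showed no difference past the spread of the replicates in MAT + COL versus CYST. The Log2FC was 0.12 (SE 0.68) for ITGB3, which became -0.0038 with the block, -0.33 (SE 0.24) for ITGB5 and -0.35 (SE 0.47) for ITGB8, with adjusted p of 0.943, 0.472 and 0.722 by edgeR.

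Whether collagen I altered the 7 genes in UG-LIKE structures was examined in MAT + COL versus MAT. No gene of 12470 tested passed an adjusted p under 0.05 in either direction with edgeR (0% higher and 0% lower, with or without the block), nor with DESeq2 or limma. At an unadjusted p under 0.05 there were 51 genes (0.409%), including CD44, and with the block 618 genes (4.96%), including CD44, ITGAV and ITGB3. None of the 7 genes had groups that did not overlap, against 2.75% of all genes with higher and 0.818% with lower expression.

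CD44 was lower with collagen I in each same-numbered pair, with folds of 0.786, 0.736 and 0.901, and its Log2FC was -0.39 (SE 0.15; edgeR adjusted p = 1.00, or 0.955 with the block). The same held for ITGAV, with folds of 0.870, 0.809 and 0.593 and a Log2FC of -0.44 (SE 0.35), or -0.50 (SE 0.13) with the block. ITGB5 was higher with collagen I in each pair, by 1.11, 1.29 and 1.39 times. SPP1 (Log2FC 0.18, SE 0.73) and ITGB6 (0.046, SE 0.24) had 1 of 3 pairs in the other direction, as did ITGB3 (0.40, SE 0.81) and ITGB8 (0.065, SE 0.48, which became -0.065 with the block). For SPP1 the block brought the SE down to 0.12 around a Log2FC of 0.17, as MAT and MAT + COL libraries of the same number had similar levels. In MAT + COL versus MAT, 0 of 6 epithelial markers and 7 of 8 stromal markers had a Log2FC above 0 in either fit. None of these markers passed an adjusted p under 0.05. The part of a changed share of such cells in the values of CD44, ITGAV and ITGB5 was not tested.

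How much of the spread over the 9 libraries went with the group and how much with the replicate number differed among the genes. On the scale of log2(TPM + 1), the group accounted for 88.5% of the variance of CD44, 78.9% of that of ITGB6 and 65.4% of that of SPP1. For ITGAV the shares were nearly equal, 47.9% by group and 49.8% by replicate number. For ITGB3 the replicate number accounted for 92.0%, for ITGB8 79.5% and for ITGB5 55.2%. SPP1 was the gene with the smallest share by replicate number, 2.64%, and its replicate 3 lay low without EGF and high with it.

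TPM is scaled by gene length, which allows levels of the genes to be compared. In CYST the order of mean levels was ITGB6, CD44, ITGAV, SPP1, ITGB3, ITGB8 and ITGB5, and each neighbour in this order overlapped with the next. In MAT it was ITGB6, SPP1, CD44, ITGAV, ITGB3, ITGB8 and ITGB5, and the only neighbours whose libraries did not overlap were ITGAV and ITGB3. In MAT + COL the order was the same as in MAT, and the libraries of CD44 and ITGAV, 127.3 TPM at the lowest and 127.0 TPM at the highest, were the only neighbours that did not overlap, by a margin far below their spread.

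Among the 4 beta subunits described here, ITGB6 was the most abundant mRNA in each library. It made up 32.8%, 63.9% and 66.6% of the summed TPM of ITGB3, ITGB5, ITGB6 and ITGB8 in CYST, 76.9%, 81.9% and 92.5% in MAT and 73.3%, 81.0% and 91.9% in MAT + COL. The mean share was 54.4 ± 18.8% in CYST, 83.8 ± 7.95% in MAT and 82.1 ± 9.32% in MAT + COL (SD, n = 3 each), without overlap between CYST and either group with EGF. The exact permutation test of 3 libraries against 3, two-sided, gave p = 0.1 for both, the smallest value this design allows, so none of the 12 differences in share that were tested could pass 0.05. The difference of the mean ITGB6 share from CYST, 29.4 points in MAT and 27.7 points in MAT + COL, was 18.5 and 16.9 points without CYST replicate 1, and reached 35.5 and 33.8 points without CYST replicate 3. The shares of ITGB5 (11.1% in CYST, 3.66% in MAT and 3.86% in MAT + COL) and ITGB8 (15.6%, 5.39% and 5.07%) were lower with EGF at the same exact p of 0.1. The share of ITGB3 was 18.9%, 7.18% and 8.99%, on average, with overlap between the groups (exact permutation p = 0.3 for both). By replicate number it was 31.0%, 17.6% and 7.99% in CYST, 9.90%, 10.02% and 1.63% in MAT and 14.9%, 9.48% and 2.61% in MAT + COL. It was thus lower with EGF in each same-numbered pair, and the permutation test does not use the pairing. A higher level of ITGB6 by itself lowers the shares of the other subunits in the sum. The TPM of ITGB3 itself, over CYST, had same-numbered folds of 0.610, 1.06 and 0.525 in MAT and 1.31, 0.971 and 0.886 in MAT + COL. The size of the share differences depended on which subunits were summed. With ITGB1, described next, in the sum, the difference from CYST was 20.6 points in MAT and 20.7 in MAT + COL for ITGB6, -0.70 and -0.56 for ITGB5, against -7.44 and -7.24 without it, and -0.80 and -0.81 for ITGB8, against -10.2 and -10.6. For ITGB3 it was -0.74 and 0.042 points, against -11.7 and -9.88. Between MAT + COL and MAT the shares gave exact permutation p of 0.7 to 0.9, again without use of the pairing. In each same-numbered pair the ITGB6 share of the 4 was lower in MAT + COL than in MAT. Those of ITGB3, ITGB5 and ITGB8 went in both directions.

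**Figure D3:**
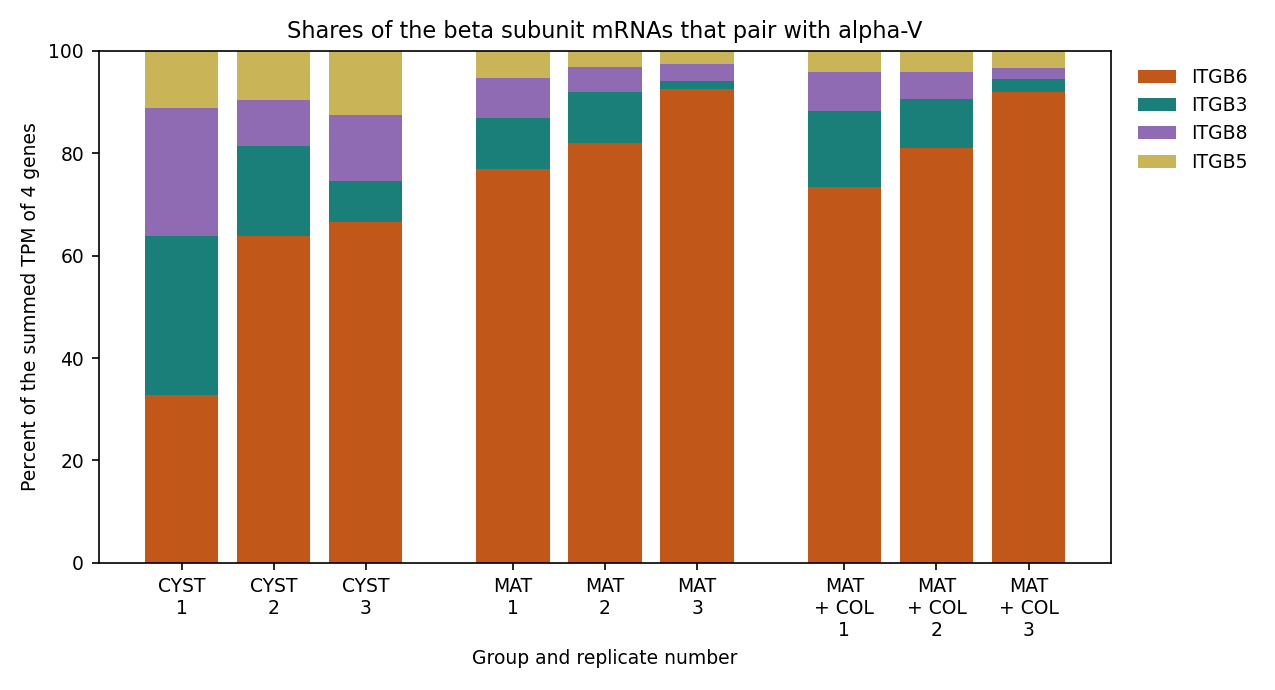
Percent of the summed TPM of ITGB6, ITGB3, ITGB8 and ITGB5 in each of the 9 libraries, as stacked bars that start at 0 and reach 100, ordered by group and replicate number. The ITGB6 part ran from 32.8% to 66.6% in CYST and from 73.3% to 92.5% in the libraries with EGF.

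ITGB1, a further partner of alpha-V and the common beta subunit of laminin and collagen receptors, was more abundant than any of the 4, at 745.6, 884.6 and 562.9 TPM in CYST, 550.0, 651.9 and 546.3 TPM in MAT and 648.6, 656.3 and 591.3 TPM in MAT + COL. Its level did not pass the test in MAT versus CYST (Log2FC -0.32, SE 0.18, edgeR adjusted p = 0.353) or MAT + COL versus CYST (Log2FC -0.26, SE 0.17, adjusted p = 0.415). The ratio of ITGB1 to ITGB6 was 5.74 to 15.7 in the CYST libraries, above the 1.78 to 2.59 of MAT and the 1.86 to 2.24 of MAT + COL without overlap. ITGB6 itself stood at 0.702, 3.13 and 2.45 times the TPM of ITGAV in CYST, at 1.46, 3.64 and 3.73 times in MAT and at 2.29, 4.32 and 6.59 times in MAT + COL. The ratio was higher in both groups with EGF than in CYST in each same-numbered pair, while the ranges of the groups overlapped.

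Genes around these receptors were examined in 7 lists. Of 13 other integrin subunits tested in MAT versus CYST, among 18 in the tables, 1 passed an adjusted p under 0.05. It was ITGB7, which pairs with the alpha-4 and alpha-E subunits and is best known from lymphocytes. Of these partners, ITGA4 had means of 0.213, 0 and 0.037 TPM in CYST, MAT and MAT + COL, and ITGAE was not found by symbol. ITGB7 had 0.502, 0.406 and 1.78 TPM in CYST, 17.0, 11.5 and 27.4 TPM in MAT and 9.96, 7.65 and 22.8 TPM in MAT + COL. Every library with EGF was above CYST, with a Log2FC of 4.30 (SE 0.72, edgeR adjusted p = 0.0401) in MAT and 3.80 (SE 0.79, adjusted p = 0.0601, or 0.0157 with the block) in MAT + COL, but it missed the TPM criterion of a DEG because of CYST replicates 1 and 2. With 1 library left out, the Log2FC of ITGB7 in MAT ran from 3.87 to 5.47 and the call held only without CYST replicate 3 (edgeR adjusted p 0.0115 to 0.153), whereas with the block it held without any 1 replicate number (up to 0.0313 in MAT and 0.0214 in MAT + COL). FERMT3, the kindlin of blood cells that activates integrins, was likewise low in CYST (0.812, 0.837 and 0.473 TPM) and higher in MAT (3.39, 10.7 and 3.59 TPM) and MAT + COL (5.92, 9.96 and 4.21 TPM). Its Log2FC was 3.05 (SE 0.62, edgeR adjusted p = 0.0540, or 0.0226 with the block) in MAT and 3.18 (SE 0.49, adjusted p = 0.0381) in MAT + COL, where it was the only 1 of 19 adaptors and focal adhesion genes tested to pass without the block. Without 1 library FERMT3 remained past the threshold in MAT + COL only without MAT + COL replicate 3 (edgeR adjusted p up to 0.160), and with the block it did not pass without replicate 1 or replicate 2 (up to 0.188 in MAT and 0.159 in MAT + COL). Of the 8 macrophage and leukocyte markers, PTPRC had means of 0.686, 0.379 and 0.318 TPM in CYST, MAT and MAT + COL, CD14 means of 21.0, 25.8 and 23.2 TPM and CD68 means of 7.85, 3.48 and 5.30 TPM, and the summed level of the list overlapped between the groups. The part of such cells in the results for ITGB7 and FERMT3 was not tested. FERMT2, another kindlin, was lower in MAT with the block (Log2FC -0.90, SE 0.19, edgeR adjusted p = 0.0293), but not without replicate 1 or replicate 2 (up to 0.195). ILK, an abundant adaptor of the beta tail, had Log2FC of -0.043 and -0.088 in the 2 comparisons with CYST.

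Of the other alpha-V ligands and SIBLING proteins, 13 were tested and 0 passed without the block in either comparison with CYST, in each of which 5 of the 13 had a Log2FC above 0. DMP1, MEPE, DSPP and VTN, the gene of vitronectin, had no count in any library, and IBSP had at most 7, so that SPP1 was the only SIBLING gene measured above that level. MFGE8, a secreted RGD protein of epithelia, and FN1, fibronectin, had the highest mean TPM over the 9 libraries, with group means of 372.2 ± 77.4 and 314.2 ± 87.7 TPM in CYST and 636.9 ± 263.5 and 362.7 ± 87.7 TPM in MAT (SD, n = 3 each). Their Log2FC of 0.75 and 0.21 did not pass (edgeR adjusted p = 0.213 and 0.725). With the block NPNT, the RGD protein nephronectin, was higher in MAT (Log2FC 0.87), and FBLN5, CCN1 and CCN2, RGD or integrin-binding matrix proteins, were lower (-1.54, -1.33 and -1.14; edgeR adjusted p 0.0298 to 0.0486 for the 4 genes). In MAT + COL the block gave 1 call in this list, FBN1, the RGD-bearing fibrillin, lower by a Log2FC of -1.01 (adjusted p = 0.0489, edgeR). With the block, CCN1 did not pass without replicate 1 (edgeR adjusted p = 0.213), and NPNT, FBLN5, CCN2 and FBN1 did not pass without replicate 1 or without replicate 2 (up to 0.174, 0.164, 0.204 and 0.271).

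None of 5 genes of the latent TGF-beta complex tested in MAT, or 7 in MAT + COL, passed in either fit. TGFB2 had Log2FC of 0.28 and -0.0068, and LTBP3, a latency-binding protein, -0.25 and -0.60. Of 7 genes of osteopontin processing tested in MAT and 8 in MAT + COL, 0 passed without the block, and with it MMP3 and MMP9, both proteases that cut osteopontin, were lower in both. MMP3 had 3588, 3658 and 4310 TPM in CYST and 1437, 1149 and 2105 TPM in MAT, without overlap, with a Log2FC of -1.32 (SE 0.29, edgeR adjusted p = 0.0619, or 0.0072 with the block). In MAT + COL the Log2FC of MMP3 and MMP9 was -1.12 and -1.01 with the block (edgeR adjusted p = 0.0327 and 0.0468). With the block MMP3 and MMP9 did not pass in MAT without replicate 1 (edgeR adjusted p = 0.118 and 0.111) or in MAT + COL without replicate 1 or replicate 2 (up to 0.145 and 0.152). MMP7, another such protease, was not called (Log2FC 0.65, SE 0.39, adjusted p = 0.391).

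For CD44, 11 genes of hyaluronan synthesis, turnover and binding were tested, of which 0 passed without the block in either comparison with CYST. HYAL1, the lysosomal hyaluronidase, had 1.40, 4.33 and 9.52 TPM in CYST, 16.9, 19.5 and 53.3 TPM in MAT and 17.0, 25.2 and 52.7 TPM in MAT + COL, without overlap. With the block HYAL1 was higher in MAT (Log2FC 2.64, SE 0.33, edgeR adjusted p = 0.0063) and in MAT + COL (2.73, SE 0.30, adjusted p = 0.0163). So was CEMIP, which takes part in hyaluronan degradation (Log2FC 2.74 and 2.36, edgeR adjusted p = 0.0147 and 0.0362), and the synthase HAS3 was higher in MAT alone (1.25, adjusted p = 0.0489 by edgeR), the difference between MAT and MAT + COL not being called. Without replicate 1, HYAL1 and CEMIP did not pass in MAT with the block (edgeR adjusted p = 0.0513 and 0.118), and HAS3 did not pass without any 1 replicate number (0.0647 to 0.138). In MAT + COL, HYAL1 held throughout (up to 0.0377) and CEMIP was lost without replicate 1 or replicate 2 (up to 0.109). HYAL2 and CEMIP2, which had the highest mean TPM of this list over the 9 libraries, had Log2FC of 0.45 and -0.61 in MAT and did not pass. Of 11 genes of CD44 shedding, splicing and membrane linkage 0 passed in either fit, among them the linkers EZR (Log2FC 0.62, SE 0.29) and MSN (-0.12, SE 0.16), at 5048 and 281.2 TPM on average in MAT. The genes called with the block alone were named after their values were seen. Beside these results, the epithelial markers EPCAM, KRT8 and KRT19 were higher in MAT with the block (Log2FC 0.70, 0.88 and 1.09). The stromal markers called went in opposite directions, VIM higher and DCN, a proteoglycan, lower (1.05 and -1.12). Of the 8 stromal markers, 1 had a Log2FC above 0. The part of a changed share of epithelial and stromal cells in the differences above was not tested.

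**Figure D4:**
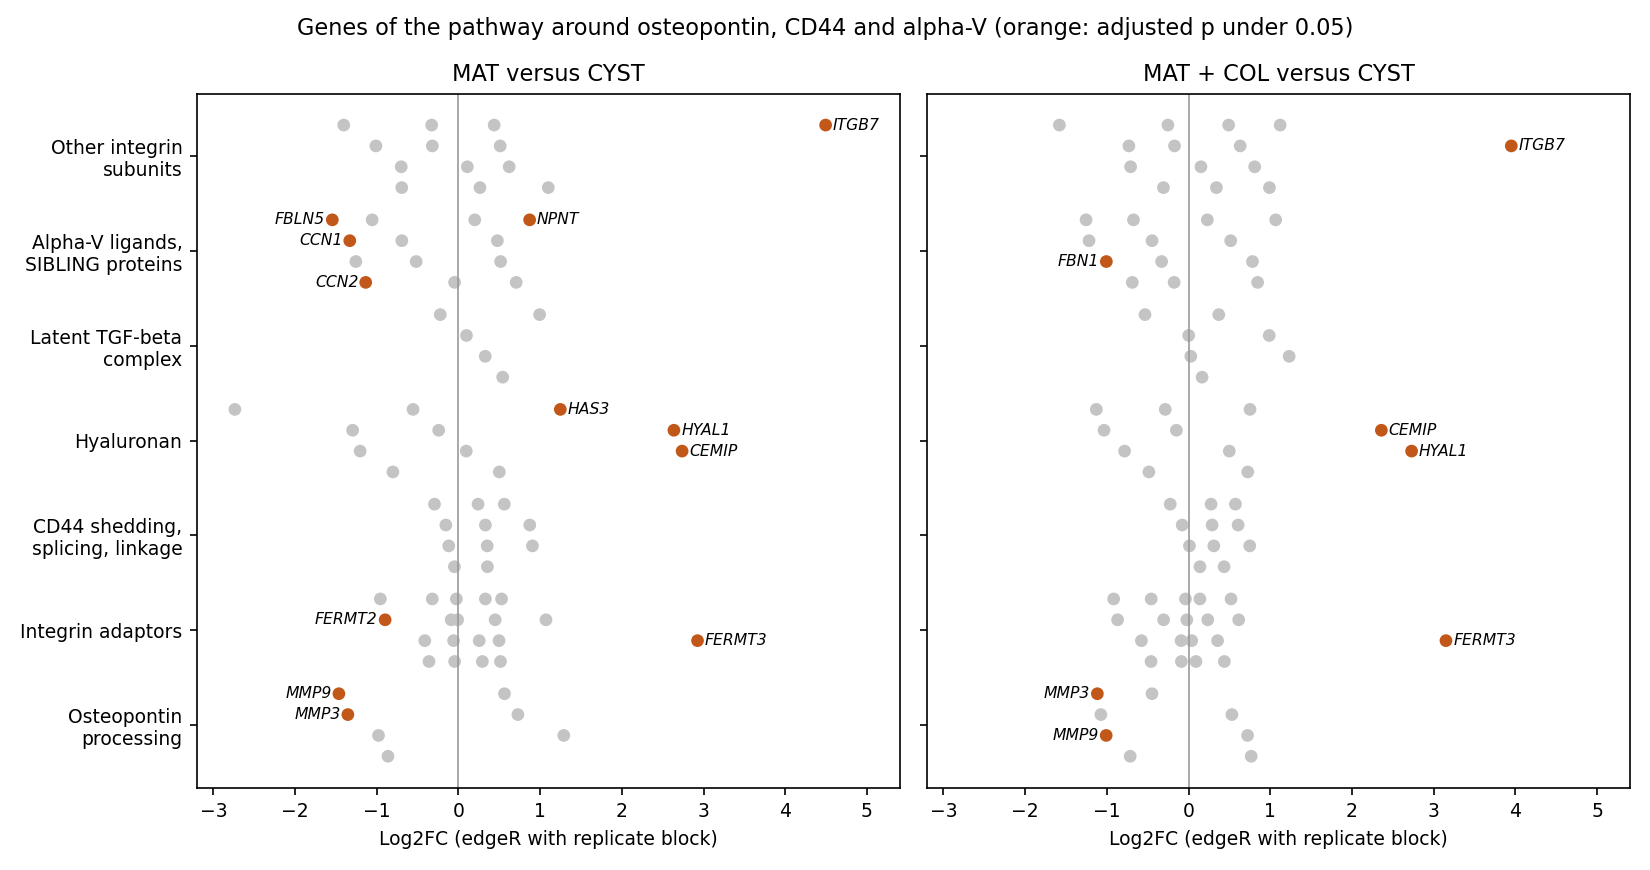
Log2FC (edgeR with the replicate block) of the genes of the 7 lists in MAT versus CYST and MAT + COL versus CYST, a point per gene tested, spread vertically within each list for legibility; orange points are genes at an adjusted p under 0.05 and carry their names. ITGB7 had the highest value, 4.49 and 3.95, and no gene of the latent TGF-beta complex or of CD44 shedding, splicing and linkage was called.

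Over the 9 libraries, the genes whose log2(TPM + 1) went most closely with that of each gene higher with EGF were named from 11641 genes with a mean of at least 1 TPM. They were MADD, KSR1 and DUSP28 for SPP1 (Pearson r 0.973, 0.969 and 0.961), CA5B, SUN1 and RALGAPA2 for CD44 (0.976, 0.976 and 0.973), P2RX3, CLDN6 and LPAR2 for ITGAV (0.969, 0.961 and 0.950) and TCAF1, GPBP1L1 and IDS for ITGB6 (0.987, 0.985 and 0.980). No gene was named for more than 1 of the 4. The points of each correlation share the library and its group, and with so many genes and 9 libraries values of this size are a description.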

How the data were processed

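Per the labels and the study's methods, total RNA of the 9 cultures was made into SMART-Seq libraries, and the authors trimmed and aligned the reads in CLC Genomics Workbench; the strand setting is not given in the sources used here. The authors deposited counts of reads per gene without normalization. They also deposited TPM, which is scaled by gene length and library and was used for levels and shares.

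Counts were tested in R 4.3.3 with edgeR 4.0.16 (filterByExpr with a minimum count of 10, TMM and the quasi-likelihood test), fitting the 6 libraries compared and adjusting p over all genes tested by the Benjamini-Hochberg method. DESeq2 1.42.0 and limma 3.58.1 on log2(TPM + 1) were alternatives, and scripts were tested on simulated data. Shares were tested with scipy 1.17.1. Groups came from the labels. Replicate numbers were taken from the sample titles. Same-numbered libraries deviated together from their group means in all 9 pairs, with correlations of 0.327 to 0.434 for MAT and CYST, 0.279 to 0.351 for MAT + COL and CYST and 0.473 to 0.690 for MAT + COL and MAT, so a block by number was fitted beside the unblocked test. The study speaks of its samples as coming from different individuals, but the labels tie no library to an animal, so p-values measure the spread between these libraries.

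The genes and lists were chosen with earlier results of these data known. Named genes were the 7 genes and ITGB1, and the 3 genes most correlated with each of SPP1, CD44, ITGAV and ITGB6. From each list came up to 4 genes past an adjusted p of 0.05 without the block, by largest absolute Log2FC. Where fewer than 2 passed, the most abundant genes filled the number up to 2. List genes past that threshold with the block alone were added after their values were seen. ITGAE, ITGAX and SHARPIN, which are in the lists, were not analysed here. No sequences were used.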

Additional observations from a re-analysis of the deposited data

How the results depend on the processing

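The direction of SPP1, CD44, ITGAV and ITGB6 against CYST was the same under every alternative tried, while the number called moved. In MAT versus CYST, 1 of the 7 genes was a DEG, against 4 with DESeq2, 3 with the replicate block, 2 with all 9 libraries in 1 fit, 3 with these and the block, and 0 with limma on log2(TPM + 1) without a filter. In MAT + COL versus CYST, 0 were, against 2 with DESeq2, 1 with the block, 2 with all 9 libraries, 2 with these and the block, 1 with limma on log2(TPM + 1) and 1 without the Log2FC criterion. With 1 library left out the counts were 0 to 1 and 0 to 0, and with 1 replicate number left out of both groups under the block, 0 (without replicate 1) to 4 and 0 to 2. Leaving out a replicate number under the block and scaling by library totals were chosen after seeing the data. Of all genes tested, 0.721% in MAT and 0.512% in MAT + COL were DEGs with higher expression, or 2.93% and 1.84% with the block. Shares of all genes under the other settings are not given here, so these counts describe the settings and not the 7 genes. The block changed no call of the 7 genes other than those given. In MAT + COL versus MAT 0 were called throughout.

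No difference that was called in the report changed sign. In MAT + COL versus CYST the Log2FC of TGFB2, -0.0068, was 0.0043 without the filter on low counts, 0.027 with the block, 0.012 with all 9 libraries, 0.032 with these and the block, and 0.085, 0.089 and 0.085 with limma on log2(TPM + 1), on log2(TPM + 0.1) and without the filter. That of ITGB3 was -0.0038 with the block, and in MAT + COL versus MAT that of ITGB8 was -0.065 with the block and -0.047 with all 9 libraries and the block. With ITGB1 in the sum, the share difference of ITGB3 in MAT + COL versus CYST was 0.042 points and that of ITGB6 in MAT + COL versus MAT 0.064 points.

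With 1 library left out, the Log2FC in MAT versus CYST ran from -0.97 to 0.20 for ITGB3, from -0.51 to 0.041 for LTBP3 and from -0.13 to 0.088 for ILK. In MAT + COL versus CYST it ran from -0.35 to 0.58 for ITGB3, from -0.69 to 0.041 for ITGB8, from -0.18 to 0.26 for TGFB2 and from -0.083 to 0.65 for EZR. In MAT + COL versus MAT it ran from -0.76 to 1.12 for SPP1, from -0.092 to 1.08 for ITGB3, from -0.15 to 0.25 for ITGB6 and from -0.28 to 0.45 for ITGB8, and share differences from -1.14 to 4.99 points for ITGB3, from -0.38 to 1.04 for ITGB5, from -6.58 to 2.69 for ITGB6 and from -1.63 to 1.11 for ITGB8.

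With 1 replicate number left out of both groups under the block, the sign changed in MAT versus CYST for LTBP3 (0.14 without replicate 2) and ILK (0.088 without replicate 3), in MAT + COL versus CYST for ITGB3 (-0.17 and -0.034 without replicates 1 and 2), TGFB2 (0.38 without replicate 1), EZR (-0.0028 without replicate 3) and HAS3 (-0.039 without replicate 3), and in MAT + COL versus MAT for ITGB6 (-0.044 without replicate 1) and ITGB8 (-0.27 and -0.11 without replicates 1 and 2). The cause of these changes was not tested. The lowest count of the 7 genes was that of SPP1 in CYST replicate 3, at 68 in a library of 9958018 counts. With 3 libraries per group, leaving out 1 leaves 2, and the test then has fewer degrees of freedom.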
